A study of Mus musculus with 6 samples.

Results

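The genes described here are 42 genes of fatty acid oxidation and the peroxisome, taken by name from a table of 35148 genes measured in the paraventricular nucleus of the hypothalamus (PVH) of the mouse. All animals carried the Ruvbl2fl/fl genotype, in which loxP sites flank part of Ruvbl2, an ATPase gene of chromatin remodelling and chaperone complexes. Adeno-associated virus of serotype 2 was injected into the PVH, with GFP alone in 3 libraries (AAV2-GFP) and with Cre recombinase and GFP in 3 libraries (AAV2-Cre-GFP), and RNA was taken 8 weeks later. The series asks about RUVBL2 in synaptic plasticity. The sources used here do not give age, sex, strain, the promoter that drives Cre, the cells that took up virus or any pooling of animals, nor whether libraries are separate animals, and p-values then measure only how far these libraries spread.

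Fatty acids are burned in 2 organelles. In mitochondria, an acyl-CoA is carried across the inner membrane by the carnitine shuttle and shortened by repeated rounds of dehydrogenation, hydration, dehydrogenation and thiolysis, with electrons passed on through the electron transfer flavoprotein. Peroxisomes shorten very long and branched chains with their own enzymes and break down the hydrogen peroxide this makes, and proteins called peroxins build the organelle and import its enzymes. In the brain, oxidation of fatty acids is mostly a task of astrocytes, whereas kidney tubules, heart and liver rely on it for much of their energy.

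Several facts about the libraries touch the values below. Ruvbl2 itself stood at 9.90, 7.36 and 8.72 FPKM (fragments scaled by gene length and library total) in AAV2-GFP libraries 1 to 3 and at 9.53, 9.10 and 9.51 FPKM in the AAV2-Cre-GFP libraries 1 to 3, which overlap (log2 difference 0.08; edgeR adjusted p = 0.773). For that reason libraries are named here by their labels, as GFP-labelled and Cre-labelled. Total counts ran from 41890769 to 54702785, and single members held between 194 and 15840 counts per library. Counting error was not small beside the spread in every member. For Eci1, Hadh and Acox3 the GFP-labelled libraries lay closer together than counting error alone would lead to. To a lesser degree this also held for Acaa2, Pex16 and Hsd17b4. The 6 PVH markers Sim1, Otp, Oxt, Avp, Crh and Trh were present in all libraries. Their summed level was 680.3 and 730.1 CPM (counts scaled to a common library total) in GFP-labelled libraries 2 and 3 and 286.4 CPM in the first, against 222.2, 249.6 and 521.4 CPM with Cre, so that all 3 Cre-labelled libraries lay below GFP-labelled libraries 2 and 3. Some libraries also held transcripts of other organs. The summed level of 29 kidney genes was 954 and 1034 CPM in Cre-labelled libraries 2 and 3, against 76.5 CPM in Cre-labelled library 1 and 92.2 to 150.1 CPM with GFP alone. Kap, a protein made in the proximal tubule, stood at 179.5 and 190.0 CPM in Cre-labelled libraries 2 and 3 and at 5.13 to 20.4 CPM in the other 4. Of the kidney list, 4 genes were at 0 in Cre-labelled library 1, 1 in library 2 and 0 in library 3, and 3 to 5 with GFP alone. The skeletal muscle list reached 297 CPM in Cre-labelled library 3 and 23.1 to 42.4 CPM elsewhere, and the testis list 753 CPM in GFP-labelled library 1 and 28.8 to 37.1 CPM elsewhere. Cre-labelled library 1 is shown apart throughout.

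**Figure D1:**
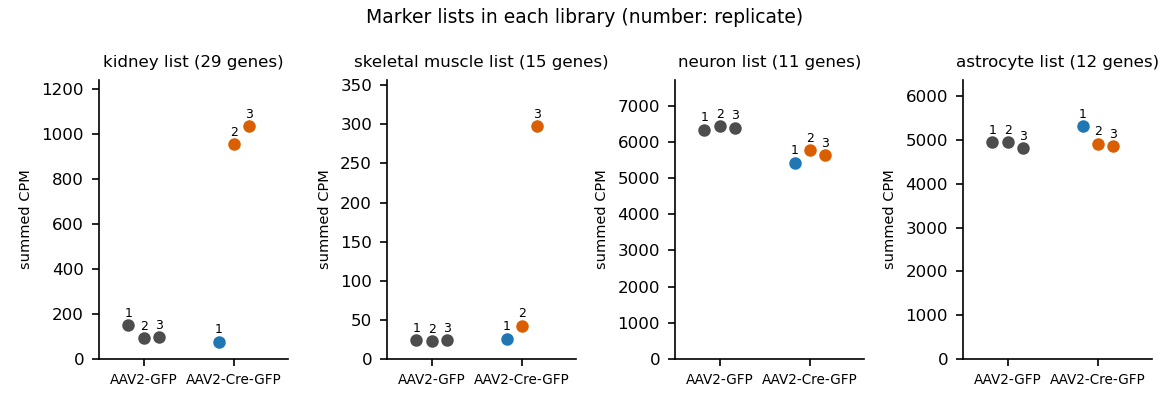
Summed level of 4 marker lists (CPM, linear axis from 0) in the 3 GFP-labelled (grey) and 3 Cre-labelled libraries (blue, replicate 1; orange, replicates 2 and 3), with the replicate number above each point. The kidney list stands at 954 and 1034 CPM in Cre-labelled libraries 2 and 3 and at most at 150.1 CPM in the other 4, whereas the neuron list is at 5431 to 5782 CPM in the Cre-labelled and at 6340 to 6431 CPM in the GFP-labelled libraries.

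Among the members, most enzymes of fatty acid oxidation had higher levels in the Cre-labelled libraries, and most enzymes that activate fatty acids did not. No single member passed the test in edgeR with all 6 libraries. All 42 members passed the filter on low counts. The log2 difference, Cre-labelled minus GFP-labelled, was above 0 for 34 of the 42 members and for 49% of the 20865 genes tested. Its median was 0.20 over the members and -0.0058 over all genes tested. In edgeR's quasi-likelihood test, 0 members passed an adjusted p of 0.05, where 0% of all genes were called higher and 0.00959% lower. Adjusted p ranged from 0.0705 for Eci1 to 0.99 for Acsl6. Without adjustment, 16 members were higher at a p under 0.05, against a background of 8.11% of genes, and 2 were lower, against 9.11%. DESeq2 called 8 members higher (Eci1, Acaa2, Etfa, Scp2, Hadha, Ehhadh, Cat and Acadm), where it called 3.12% of genes higher, and 1 lower (Acsl4), where it called 4.91% lower, 8.03% in all. These DESeq2 shares are of the 16455 genes to which it gave an adjusted p.

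On the FPKM scale, all 3 Cre-labelled libraries lay above every GFP-labelled library for 18 of the 42 members, which is 42.9% of them, beside 14.1% of all genes. The opposite order held for 1 member, Acsl4, beside 8.8% of all genes. Scaling matters to this count, because the FPKM scale sets more genes higher than lower. On CPM with TMM normalization, which balances the libraries over all genes, the order held for 11 members, 26.2% of them, beside 11.1% of all genes for higher and 11.7% for lower. Another 7 members on the FPKM scale, beside 6.66% of all genes, were above every GFP-labelled library in Cre-labelled libraries 2 and 3 but not in library 1. These were Cpt2, Acadl, Acadm, Hadh, Ehhadh, Ech1 and Pex11a. The opposite order, with libraries 2 and 3 alone below, held for 0 members, beside 5.38% of all genes, and library 1 alone was above for 2 members, Pex5 and Pex13, beside 9.13%. With TMM scaling, the group above in libraries 2 and 3 but not in library 1 grew from 7 to 11 members. That is 26.2% of the members beside 7.09% of all genes, as Cat, Cpt1a, Etfb and Etfdh joined it. The summed level of the 11 neuron markers also differed between the groups. It was 6340 to 6431 CPM in the GFP-labelled and 5431 to 5782 CPM in the Cre-labelled libraries. Taken singly, Rbfox3, Syt1, Eno2, Map2 and Syp did not overlap between the groups, whereas Snap25, Tubb3, Stmn2, Nefl, Nefm and Elavl3 did. The 12 astrocyte markers summed to 4817 to 4947 CPM in the GFP-labelled and 4854 to 5308 CPM in the Cre-labelled libraries, which overlap. Taken singly, Slc1a3, Gja1, Fgfr3 and S100b were higher in the Cre-labelled libraries without overlap. Slc1a2, the most abundant of the list, was lower without overlap, and the remaining astrocyte markers overlapped. In bulk tissue, a different number of cells and a different amount of RNA per cell cannot be told apart. A ribosomal RNA model, the more abundant of those named CT010467, stood at 2072 to 2219 CPM in the GFP-labelled and at 7301 to 17633 CPM in the Cre-labelled libraries. The part of these differences in the members' values was not tested.

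**Figure D2:**
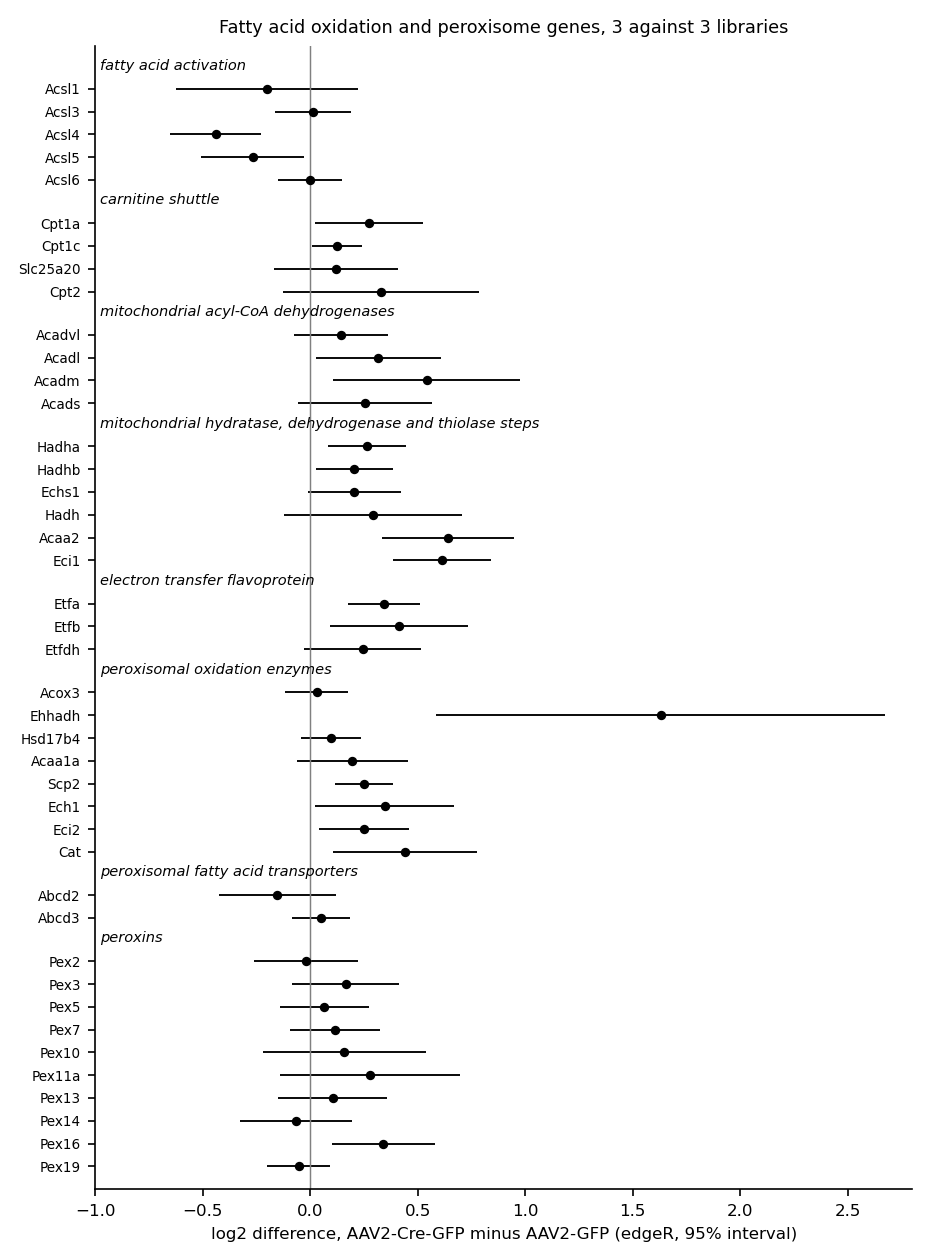
Log2 difference of each of the 42 members (points) with its 95% interval (lines) from edgeR, 3 Cre-labelled against 3 GFP-labelled libraries, grouped by role. Points of the mitochondrial oxidation steps lie to the right of 0, from 0.14 for Acadvl to 0.64 for Acaa2, those of the fatty acid activating enzymes lie at or to the left of it, and Ehhadh has the largest difference (1.63) with the widest interval.

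Activation is the first step, in which long-chain acyl-CoA synthetases join a fatty acid to coenzyme A. Of the 5 members of this role 4 had a log2 difference below 0, with Acsl6 only just below at -0.0023, and 0 passed in edgeR. Acsl4, which favours arachidonic acid and other polyunsaturated chains, stood at 11.8, 11.9 and 9.66 FPKM in GFP-labelled libraries 1 to 3, respectively, and at 8.29, 8.81 and 8.14 FPKM in the Cre-labelled libraries 1 to 3. The groups did not overlap, and Cre-labelled library 1 was as low as libraries 2 and 3. The log2 difference was -0.44 ± 0.091 (SE; edgeR adjusted p = 0.0946; DESeq2 adjusted p = 0.00112). It was -0.46 with Cre-labelled library 1 alone and -0.41 with libraries 2 and 3. Acsl5, an enzyme of mitochondria and the endoplasmic reticulum, differed by -0.27 ± 0.10 in log2 (SE; edgeR adjusted p = 0.245), with overlapping groups. It shares 24388 bases with Zdhhc6 on the opposite strand.

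Acsl3, a synthetase of the endoplasmic reticulum and lipid droplets, was the most abundant member, at a mean of 48.9 FPKM over all 6 libraries. Its level was 51.5, 48.7 and 44.1 FPKM in the GFP-labelled and 50.5, 52.8 and 46.0 FPKM in the Cre-labelled libraries 1 to 3, with overlapping groups. The 95% interval of its log2 difference ran from -0.17 to 0.19. Acsl3 shares 13475 bases with Utp14b on the same strand, so reads there can be given to either gene. Acsl6, a brain synthetase tied to docosahexaenoic acid, stood at 23.4, 24.9 and 22.5 FPKM in the GFP-labelled and at 22.8, 24.5 and 25.1 FPKM in the Cre-labelled libraries. Its groups overlapped as well, and its interval was -0.15 to 0.15. Acsl1, a main synthetase of liver, fat and heart, was highest in GFP-labelled library 1 at 5.91 FPKM, the library with testis transcripts, and lay between 3.61 and 4.19 FPKM in the other 5.

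The carnitine shuttle had 4 members with a log2 difference above 0 and a median of 0.20. Cpt1a, the rate-limiting transferase of the mitochondrial outer membrane, stood at 4.27, 4.52 and 4.84 FPKM in the GFP-labelled and at 4.89, 5.65 and 6.35 FPKM in the Cre-labelled libraries. The groups did not overlap in FPKM, but Cre-labelled library 1 was only just above GFP-labelled library 3. In log2 the groups differed by 0.27 ± 0.11 (SE; edgeR adjusted p = 0.261), with 0.065 for Cre-labelled library 1 alone and 0.38 for libraries 2 and 3. Cpt1c, the neuronal relative that sits in the endoplasmic reticulum and has little transferase activity, had another order. Its level was 14.9, 15.4 and 14.9 FPKM in the GFP-labelled and 17.5, 16.1 and 16.9 FPKM in the Cre-labelled libraries, with no overlap and the highest value in Cre-labelled library 1. The log2 difference was 0.12 ± 0.050 (SE; edgeR adjusted p = 0.261). Cpt2, the inner-membrane transferase that hands the acyl group back to coenzyme A, stood at 4.04, 4.29 and 3.47 FPKM in the GFP-labelled and at 3.83, 6.29 and 5.05 FPKM in the Cre-labelled libraries. Only Cre-labelled libraries 2 and 3 were above the GFP-labelled ones. In log2 the groups differed by 0.33 ± 0.20 (SE; edgeR adjusted p = 0.443), and it was -0.078 for Cre-labelled library 1 alone and 0.51 for libraries 2 and 3. Slc25a20, the translocase between both transferases, had overlapping groups at 2.24 ± 0.251 and 2.50 ± 0.102 FPKM (SD, n = 3).

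The mitochondrial acyl-CoA dehydrogenases each take a range of chain lengths. Acadm, the medium-chain enzyme, stood at 6.72, 7.87 and 8.16 FPKM in the GFP-labelled and at 8.06, 13.1 and 12.8 FPKM in the Cre-labelled libraries 1 to 3. Cre-labelled library 1 lay inside the GFP-labelled range, and libraries 2 and 3 were 1.71-fold above the GFP-labelled mean. The log2 difference was 0.54 ± 0.19 (SE; edgeR adjusted p = 0.208). With Cre-labelled library 1 alone it was 0.045 (edgeR adjusted p = 0.939), and with libraries 2 and 3 it was 0.75 (edgeR adjusted p = 0.0199). Acadl, the long-chain enzyme, had the same order, at 13.3, 13.7 and 15.2 against 14.9, 19.9 and 19.0 FPKM. Its log2 difference was 0.32 ± 0.13 (SE; edgeR adjusted p = 0.257), with 0.043 for Cre-labelled library 1 alone and 0.45 for libraries 2 and 3. Acads, the short-chain enzyme, did not follow this order. Its level was 3.13, 3.56 and 3.87 FPKM in the GFP-labelled and 4.25, 4.32 and 4.38 FPKM in the Cre-labelled libraries, with no overlap and close values in the 3 Cre-labelled libraries (log2 difference 0.25 ± 0.13 SE; edgeR adjusted p = 0.382). Acadvl, the very-long-chain enzyme, stood at 16.7 ± 1.69 and 19.0 ± 1.58 FPKM (SD, n = 3), with overlapping groups. It shares 2119 bases with Dvl2 on the opposite strand, and whether strand was used in counting is not given in the sources used here.

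The next steps held the members with the smallest p. Eci1, the isomerase that moves the double bond of unsaturated chains so that they can be oxidised, stood at 5.00, 5.10 and 5.10 FPKM in the GFP-labelled and at 7.78, 8.43 and 7.65 FPKM in the Cre-labelled libraries. All 3 Cre-labelled libraries were well above the GFP-labelled ones, library 1 included. The log2 difference was 0.61 ± 0.098 (SE), with an edgeR adjusted p of 0.0705 and a DESeq2 adjusted p of 0.000269. It was 0.58 with Cre-labelled library 1 alone and 0.65 with libraries 2 and 3. Acaa2, the mitochondrial thiolase, stood at 7.33, 7.53 and 7.08 FPKM in the GFP-labelled and at 10.1, 11.4 and 13.7 FPKM in the Cre-labelled libraries, again with no overlap. Its log2 difference was 0.64 ± 0.13 (SE; edgeR adjusted p = 0.0936; DESeq2 adjusted p = 0.00284). Cre-labelled library 1 alone gave 0.42, and libraries 2 and 3 gave 0.76 (edgeR adjusted p = 0.0464).

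Hadha and Hadhb encode both subunits of the mitochondrial trifunctional protein, which carries out the last steps for long chains. The genes lie head to head on chromosome 5, Hadha on the minus strand and Hadhb on the plus strand, with 85 bases between their annotated starts in the deposited table. That stretch is shown because both genes are transcribed away from it. It is read on the plus strand from RefSeq promoters of GRCm38.p6 (chr5:30155163-30155247), with the GC box letters GGGCGG in capitals:
Hadha-Hadhb: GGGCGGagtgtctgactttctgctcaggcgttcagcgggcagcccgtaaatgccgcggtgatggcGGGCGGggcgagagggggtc
Hadha stood at 8.84, 7.56 and 7.76 FPKM in the GFP-labelled and at 9.42, 9.85 and 10.5 FPKM in the Cre-labelled libraries. Hadhb stood at 6.82, 7.22 and 7.13 FPKM and at 7.69, 8.86 and 8.47 FPKM. For both genes the groups did not overlap. The log2 differences were 0.26 ± 0.078 for Hadha and 0.20 ± 0.077 for Hadhb (SE; edgeR adjusted p = 0.165 and 0.242; DESeq2 adjusted p = 0.0481 and 0.173). With Cre-labelled library 1 alone they were 0.18 and 0.082, and with libraries 2 and 3 they were 0.32 and 0.28.

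Echs1, the short-chain hydratase, had non-overlapping groups at 3.82, 3.27 and 4.07 against 4.30, 4.51 and 4.41 FPKM, with a log2 difference of 0.21 ± 0.094 (SE; edgeR adjusted p = 0.314). Hadh, the dehydrogenase of shorter chains, stood at 3.56 ± 0.0268 FPKM (SD, n = 3) in the GFP-labelled libraries and at 3.22, 4.89 and 5.30 FPKM in the Cre-labelled ones. Cre-labelled library 1 lay below all GFP-labelled libraries and libraries 2 and 3 above them. The log2 difference of Hadh was -0.19 for Cre-labelled library 1 alone and 0.50 for libraries 2 and 3 (edgeR adjusted p = 0.693 and 0.0553).

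The electron transfer flavoprotein takes electrons from the dehydrogenases and passes them, through its own oxidoreductase, to ubiquinone. All 3 of its genes had Cre-labelled libraries above every GFP-labelled one in FPKM, as did 14.1% of all genes. After TMM scaling this held for Etfa, beside 11.1% of all genes, whereas for Etfb and Etfdh it held for Cre-labelled libraries 2 and 3 and not for library 1. Etfa, the alpha subunit, stood at 14.9, 15.2 and 13.6 FPKM in the GFP-labelled and at 18.4, 19.1 and 19.4 FPKM in the Cre-labelled libraries, with all 3 Cre-labelled libraries close together. Its log2 difference was 0.34 ± 0.073 (SE; edgeR adjusted p = 0.095; DESeq2 adjusted p = 0.0105). Etfb, the beta subunit, stood at 17.8, 16.5 and 20.8 FPKM and at 20.9, 26.6 and 27.8 FPKM. Cre-labelled library 1 was level with the highest GFP-labelled library, and the log2 difference was 0.41 ± 0.14 (SE; edgeR adjusted p = 0.199). It was 0.14 for Cre-labelled library 1 alone and 0.55 for libraries 2 and 3. Etfb shares 13673 bases with the gene model Etfbl on the same strand, which stood at most at 1.15 CPM. The 2 subunits work as a pair, but in Cre-labelled library 1 Etfa stood apart from the GFP-labelled libraries and Etfb did not. Etfdh, the oxidoreductase, stood at 3.03, 3.30 and 3.53 FPKM and at 3.55, 3.81 and 4.61 FPKM, with a log2 difference of 0.24 ± 0.12 (SE; edgeR adjusted p = 0.339). The difference of Etfdh was 0.069 for Cre-labelled library 1 alone and 0.34 for libraries 2 and 3, and it was 0.14 without Cre-labelled library 3.

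**Figure D3:**
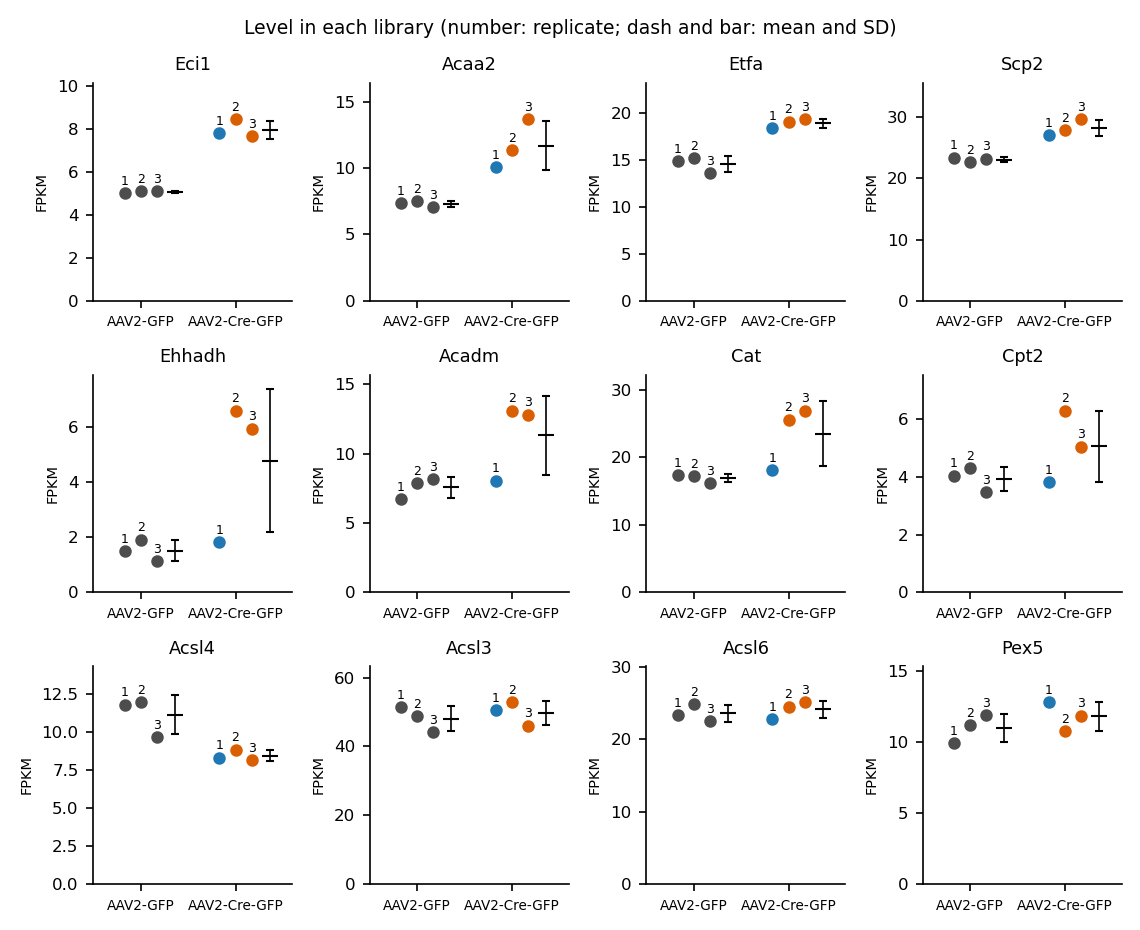
FPKM of 12 members in each library on linear axes from 0 (grey, GFP-labelled; blue, Cre-labelled replicate 1; orange, Cre-labelled replicates 2 and 3), with the group mean and SD beside the points. In the top row all 3 Cre-labelled libraries lie above the GFP-labelled ones, in the middle row replicates 2 and 3 lie well above and replicate 1 lies inside or next to the GFP-labelled range, and in the bottom row Acsl4 is lower while Acsl3, Acsl6 and Pex5 overlap.

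Among the 8 peroxisomal oxidation enzymes every log2 difference was above 0, with a median of 0.25. Ehhadh, the L-bifunctional enzyme that carries out the hydratase and dehydrogenase steps, had the largest difference of all members. It stood at 1.48, 1.91 and 1.14 FPKM in the GFP-labelled libraries and at 1.82, 6.57 and 5.92 FPKM in the Cre-labelled libraries 1 to 3, from 194 to 1122 counts. Cre-labelled library 1 lay inside the GFP-labelled range, and the mean of libraries 2 and 3 was 4.13-fold the GFP-labelled mean. In log2 the groups differed by 1.63 ± 0.45 (SE; edgeR adjusted p = 0.145; DESeq2 adjusted p = 0.00131). Alone, Cre-labelled library 1 gave 0.23 (edgeR adjusted p = 0.86), and libraries 2 and 3 gave 2.03 (edgeR adjusted p = 0.012). Cat, the catalase that breaks down hydrogen peroxide, stood at 17.4, 17.2 and 16.2 FPKM and at 18.1, 25.6 and 26.9 FPKM. Cre-labelled library 1 was just above the GFP-labelled libraries, and libraries 2 and 3 were 1.55-fold their mean. The log2 difference of Cat was 0.44 ± 0.15 (SE; edgeR adjusted p = 0.191), and it was 0.055 for Cre-labelled library 1 alone and 0.62 for libraries 2 and 3 (edgeR adjusted p = 0.841 and 0.00879). Ech1, a dienoyl-CoA isomerase found in both organelles, had a log2 difference of 0.043 with Cre-labelled library 1 alone and 0.50 with libraries 2 and 3.

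Other peroxisomal enzymes had other orders of libraries. Scp2, sterol carrier protein with a thiolase form, stood at 23.4, 22.6 and 23.2 FPKM in the GFP-labelled and at 27.0, 27.9 and 29.6 FPKM in the Cre-labelled libraries, with no overlap and Cre-labelled library 1 close to libraries 2 and 3. Its log2 difference was 0.25 ± 0.058 (SE; edgeR adjusted p = 0.111; DESeq2 adjusted p = 0.0108). Eci2, an enoyl-CoA isomerase, stood at 4.05, 4.73 and 4.22 FPKM and at 5.19, 4.96 and 5.72 FPKM, also without overlap (log2 difference 0.25 ± 0.091 SE; edgeR adjusted p = 0.225). Hsd17b4, the D-bifunctional enzyme and the main route for very long and branched chains, stood at 14.9, 15.0 and 15.4 FPKM and at 17.3, 15.5 and 17.0 FPKM. Its groups did not overlap in FPKM and overlapped after TMM scaling, with an interval of -0.04 to 0.24 in log2. Ehhadh and Hsd17b4 act on the same step, and in Cre-labelled libraries 2 and 3 their log2 differences were 2.03 and 0.086. Acox3, an oxidase of branched chains, stood at 2.78, 2.76 and 2.75 FPKM and at 2.91, 2.79 and 2.98 FPKM, with a log2 difference of 0.029 ± 0.063 (SE; edgeR adjusted p = 0.859). Acaa1a, the peroxisomal thiolase, was lowest in GFP-labelled library 1 at 10.7 FPKM and lay between 14.0 and 16.2 FPKM in the other 5. It shares 10623 bases with Slc22a14 on the opposite strand, whose level was 11.6 CPM in that library and no more than 0.214 CPM elsewhere.

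The stretches before the starts of 4 members are shown because their levels behaved differently: Acadm, Ehhadh and Cat were high in Cre-labelled libraries 2 and 3, and Eci1 was high in all 3 Cre-labelled libraries. Each is read 5′ to 3′ on the gene's own strand from RefSeq promoters of GRCm38.p6 and ends before the outermost annotated start. They lie at chr3:153944644-153944893 (Acadm, minus), chr16:21787835-21788084 (Ehhadh, minus), chr2:103485161-103485403 (Cat, minus) and chr17:24426433-24426640 (Eci1, plus). Capitals mark AGGTCA, the half-site of many nuclear receptors including the PPARs that govern fatty acid oxidation, and the GC box GGGCGG, each on either strand:
Acadm: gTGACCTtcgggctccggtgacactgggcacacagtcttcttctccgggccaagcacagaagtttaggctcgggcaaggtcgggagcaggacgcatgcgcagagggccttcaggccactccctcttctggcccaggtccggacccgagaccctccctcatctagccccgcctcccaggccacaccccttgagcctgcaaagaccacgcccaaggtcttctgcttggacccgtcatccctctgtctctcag
Ehhadh: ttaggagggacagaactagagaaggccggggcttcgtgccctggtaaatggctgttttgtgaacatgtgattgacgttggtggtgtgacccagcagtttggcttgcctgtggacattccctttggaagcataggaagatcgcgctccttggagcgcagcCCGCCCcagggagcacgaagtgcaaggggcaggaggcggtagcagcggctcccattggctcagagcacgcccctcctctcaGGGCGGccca
Cat: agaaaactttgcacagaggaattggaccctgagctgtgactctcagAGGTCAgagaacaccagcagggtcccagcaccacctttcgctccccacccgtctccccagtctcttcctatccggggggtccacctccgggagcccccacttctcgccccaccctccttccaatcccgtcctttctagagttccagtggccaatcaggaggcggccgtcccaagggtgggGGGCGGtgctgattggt
Eci1: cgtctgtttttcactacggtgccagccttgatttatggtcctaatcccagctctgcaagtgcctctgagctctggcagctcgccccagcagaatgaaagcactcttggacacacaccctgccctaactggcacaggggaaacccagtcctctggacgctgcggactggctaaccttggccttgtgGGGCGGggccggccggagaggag
Over whole windows of 300 bases, 37 of the 42 members matched a promoter, with 44 windows in all. AGGTCA was found in 8 of the 44 windows, 18.2% of them, beside 16.3% of all 32851 windows and 14.7% of those of protein-coding genes. The 8 members with it were Acadm, Acadvl, Acsl6, Cat, Cpt1a, Cpt1c, Echs1 and Scp2, which had different orders of libraries. A pair of AGGTCA in the same direction with 1 base between, the classic PPAR element, was in 0 of the members' windows and in 0.0396% of all windows. Only exact letters were searched, so variants of the element and copies outside these windows were not counted. GGGCGG was in 77.3% of the members' windows, beside 35.7% of all windows and 46.2% of those of protein-coding genes. A match is a description of letters and not of binding.

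The 2 transporters that carry fatty acids into peroxisomes had log2 differences on either side of 0, and those of the 10 peroxins that build the organelle ran from -0.067 for Pex14 to 0.34 for Pex16, with a median of 0.11. Abcd3, the transporter of branched chains and the most abundant protein of the peroxisomal membrane in many tissues, stood at 12.1 and 11.4 FPKM in GFP-labelled libraries 2 and 3, between them in library 1 (mean 11.8 ± 0.36, SD, n = 3), and at 13.4, 11.8 and 12.5 FPKM in the Cre-labelled libraries, with overlapping groups and an interval of -0.08 to 0.18 in log2. Abcd2, a transporter of very long chains, differed by -0.15 ± 0.12 in log2 (SE; edgeR adjusted p = 0.551). Pex5, the receptor that brings most enzymes into the peroxisome, stood at 9.92, 11.1 and 11.9 FPKM and at 12.8, 10.8 and 11.8 FPKM. Its groups overlapped, with the highest value in Cre-labelled library 1, and the interval was -0.14 to 0.27. Pex7, the receptor for the smaller second class of enzymes and the least abundant member, stood at 1.49, 1.69 and 1.75 FPKM and at 1.83, 1.78 and 1.88 FPKM. Its groups did not overlap in FPKM and overlapped after TMM scaling (log2 difference 0.11 ± 0.090 SE; edgeR adjusted p = 0.563).

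Pex16, which helps to place membrane proteins together with Pex3 and Pex19, was the peroxin with the largest difference. It stood at 7.13, 7.12 and 6.74 FPKM in the GFP-labelled and at 10.2, 8.49 and 8.62 FPKM in the Cre-labelled libraries. The groups did not overlap, and Cre-labelled library 1 was the highest. In log2 the groups differed by 0.34 ± 0.10 (SE; edgeR adjusted p = 0.168), with 0.50 for Cre-labelled library 1 alone and 0.27 for libraries 2 and 3. Its partners had log2 differences of 0.16 ± 0.11 (Pex3) and -0.054 ± 0.063 (Pex19). The docking proteins Pex13 and Pex14 stood at 0.10 ± 0.11 and -0.067 ± 0.11, and the ubiquitin ligase subunits Pex2 and Pex10 at -0.019 ± 0.10 and 0.16 ± 0.16 (SE). Pex11a, a factor of peroxisome division, differed by 0.28 ± 0.18 (SE; edgeR adjusted p = 0.484), and only Cre-labelled libraries 2 and 3 were above all GFP-labelled ones.

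With Cre-labelled library 1 set against the 3 GFP-labelled libraries, a fit that takes the single library to vary as the GFP-labelled ones do, the median log2 difference of the members was 0.12, and 33 members were above 0. The median was 0.18 for the mitochondrial hydratase, dehydrogenase and thiolase steps, 0.17 for the peroxisomal oxidation enzymes and 0.13 for the peroxins. That fit called 0 of the 42 members in edgeR, where it called 0.0126% of all genes higher and 0.00419% lower, 0.0168% in all. With libraries 2 and 3 only, the median was 0.21, and the same 3 roles stood at 0.41, 0.29 and 0.087. That fit called 4 members higher (Acadm, Acaa2, Ehhadh and Cat), where it called 1.12% of all genes higher, and 0 members lower, where it called 0.234% lower, 1.36% in all. Both fits share their GFP-labelled libraries. For the other roles, the median is given first for library 1 alone and then for libraries 2 and 3. It was 0.11 and 0.37 for the acyl-CoA dehydrogenases, 0.14 and 0.38 for the electron transfer flavoprotein and 0.11 and 0.25 for the carnitine shuttle. For fatty acid activation it was -0.29 and -0.14, and for the peroxisomal transporters 0.021 and -0.069. Of the 4, Acaa2 was the one whose value in Cre-labelled library 1 also lay well above the GFP-labelled libraries. The kidney list was at 954 and 1034 CPM in libraries 2 and 3 and the skeletal muscle list at 297 CPM in library 3, and their part in these 4 calls was not tested.

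**Figure D4:**
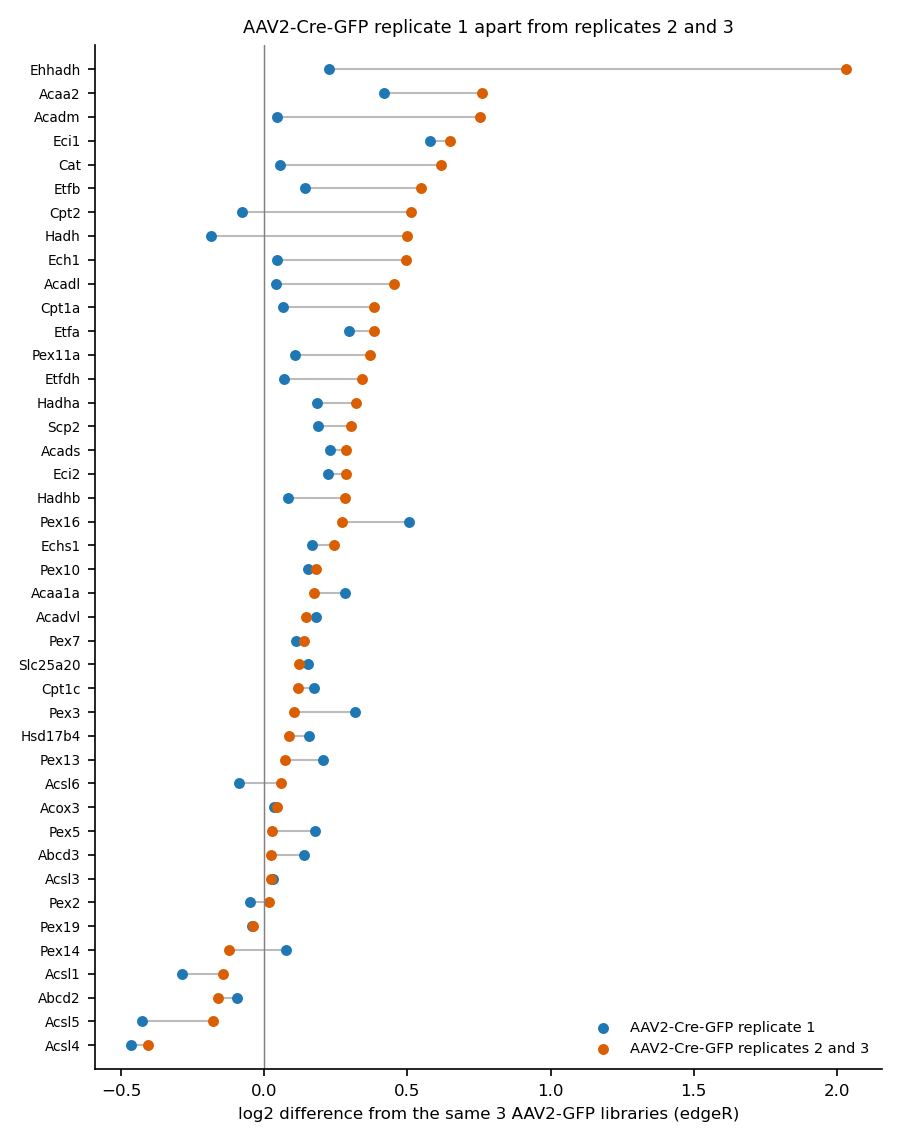
Log2 difference of each member from the same 3 GFP-labelled libraries for Cre-labelled replicate 1 (blue) and for Cre-labelled replicates 2 and 3 (orange), sorted by the second. The points lie far apart for Ehhadh (0.23 and 2.03), Acadm (0.045 and 0.75), Cat and Hadh, and close together for Eci1 (0.58 and 0.65), Acsl4 (-0.46 and -0.41) and Acsl3.

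With all 6 libraries, further genes of the pathway, which are no members, gave 0 calls in edgeR in either direction. With Cre-labelled libraries 2 and 3 only, edgeR called 3 other peroxisome genes (Slc27a2, Dao and Pipox) and 1 PPAR target (Acot1) higher. That fit called 0 other fatty acid oxidation genes, and it called 1.12% of all genes higher. DESeq2 called 2 other fatty acid oxidation genes, 2 other peroxisome genes and 1 PPAR target higher, beside 3.12% of the 16455 genes to which it gave an adjusted p. Neither called any of them lower. Over all genes tested, 49% had a log2 difference above 0, 8.11% were higher at an unadjusted p under 0.05 and 9.11% lower. Of 22 other fatty acid oxidation genes 13 had a log2 difference above 0 (median 0.15), with 7 higher and 0 lower at an unadjusted p under 0.05. The smallest p were those of Acad11, a mitochondrial and peroxisomal dehydrogenase, Acat1, an acetoacetyl-CoA thiolase, and Decr1, a dienoyl-CoA reductase, with log2 differences of 0.38, 0.27 and 0.39 (edgeR adjusted p = 0.105, 0.134 and 0.173). In each of these 3 genes, picked by their p, all Cre-labelled libraries were above the GFP-labelled ones in FPKM. Of the 22 genes 9 had this order, beside 14.1% of all genes, and 2 had the opposite order, beside 8.8%. Of 36 other peroxisome genes 31 were above 0 (median 0.14), with 9 higher and 0 lower at an unadjusted p under 0.05, led by Dhrs4, a carbonyl reductase, at 0.78, Slc27a2, a very-long-chain acyl-CoA synthetase, at 1.67, and Ddo, D-aspartate oxidase, at 0.28 (edgeR adjusted p = 0.103, 0.19 and 0.218). Slc27a2 stood at 5.65, 5.94 and 6.22 FPKM in the GFP-labelled and at 4.63, 26.3 and 26.8 FPKM in the Cre-labelled libraries 1 to 3, with libraries 2 and 3 far above and library 1 below every GFP-labelled one. Its log2 difference was -0.40 with Cre-labelled library 1 alone and 2.14 with libraries 2 and 3. Over the 36 other peroxisome genes, the median was 0.056 with Cre-labelled library 1 alone and 0.20 with libraries 2 and 3. Of these 36, 11 had all Cre-labelled libraries above in FPKM, and 10 had only libraries 2 and 3 above, beside 14.1% and 6.66% of all genes. Over the 22 other fatty acid oxidation genes, the 2 medians were 0.090 and 0.12.

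Regulators of the pathway and targets of the PPAR nuclear receptors had 11 of 24 genes above 0, with a median of -0.016, and 2 higher and 2 lower at an unadjusted p under 0.05. The median was -0.14 with Cre-labelled library 1 alone and 0.045 with libraries 2 and 3. Acot1, an acyl-CoA thioesterase and known PPAR target, stood at 2.71, 2.72 and 2.60 FPKM in the GFP-labelled and at 4.38, 4.18 and 4.57 FPKM in the Cre-labelled libraries. The groups did not overlap, and the log2 difference was 0.67 with Cre-labelled library 1 alone and 0.69 with libraries 2 and 3 (all 3 libraries 0.67 ± 0.094 SE; edgeR adjusted p = 0.0705; DESeq2 adjusted p = 2.84e-05). Its close relative Acot2, with which it can share reads, differed by 0.34 (edgeR adjusted p = 0.51). Acaca, which makes the malonyl-CoA that inhibits Cpt1a, differed by -0.20, and Angptl4, a PPAR target that inhibits lipoprotein lipase, by 0.85 (edgeR adjusted p = 0.178 and 0.226).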

How the data were processed

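Poly(A) RNA was sequenced as read pairs, with the second strand marked by dUTP and with molecular identifiers, per the labels' protocols. The submitters' processing notes name cutadapt, HISAT2 and StringTie and build mm9; the sources used here give no versions or roles, nor whether counting used strand or identifiers. Of 35024 gene identifiers shared with GENCODE M21 (GRCm38), 91.3% had identical positions and strand in the table, and GRCm38 is the build named for its positions. The authors deposited a whole-number count per gene. They also deposited FPKM, which within a gene was proportional to the count over the library total (median spread 0.135%). Total counts were 41890769 to 54702785 per library, and no 2 replicates agreed within sampling noise (chi-square of at least 11.4 per gene).

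Counts of 3 against 3 libraries were tested with edgeR 4.0.16 (R 4.3.3; quasi-likelihood, TMM, filterByExpr at a minimum count of 10, two-sided, no covariates) over 20865 genes, with Benjamini-Hochberg adjustment over all of them and a threshold of 0.05. SEs come from the F statistic. Alternatives were DESeq2 1.42.0, limma 3.58.1 on log2(FPKM + 0.5) or log2(FPKM + 0.1) where the mean FPKM reached 1, and other settings. The members and lists were chosen with earlier results of these data known. Values in every library are given for 14 members in every case, for members past the threshold or with groups that do not overlap in FPKM, and for the 6 largest differences. Of each further pathway list, the 3 genes with the smallest p are named. Library values of Hadh, Acsl1 and Acaa1a, and Acot2, fall outside this rule and were chosen after their values were seen.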

Additional observations from a re-analysis of the deposited data

How the results depend on the processing

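The number of genes called was 2 in edgeR with TMM, 1322 in DESeq2, 9 with RLE factors, 22 with a robust fit, 1 without a filter, and 15 and 1 in limma with a pseudocount of 0.1 and with 0.5 and no filter. It was 4 for Cre-labelled library 1 against 3 GFP-labelled libraries and 1059 for it against GFP-labelled libraries 2 and 3; with 1 library left out it ran from 1 to 296, the latter without Cre-labelled library 1. Members called higher were 0 in the main test, 8 in DESeq2, 1 (Eci1, adjusted p = 0.0494) in limma with a pseudocount of 0.1, and 0 to 4 with 1 library left out. Members called lower were 0, and 1 in DESeq2. The members' median log2 difference was 0.20, from 0.18 to 0.24 with 1 library left out, and 0.12 and 0.083 in the 2 settings with Cre-labelled library 1 only. Members above 0 numbered 29 to 36 in all settings. Signs turned for differences close to 0 or resting on Cre-labelled libraries 2 and 3. Acsl6 was at 0.034 in limma with each pseudocount and without a filter, at 0.017 in edgeR without a filter, and from -0.030 to 0.058 with 1 library left out (0.058 and 0.035 without Cre-labelled library 1 or GFP-labelled library 2). Acsl3 ran from -0.043 to 0.080 (-0.029 and -0.043 without Cre-labelled library 2 or GFP-labelled library 3), and Pex5 from -0.0067, without GFP-labelled library 1, to 0.13. Cpt2 was at -0.078 and -0.071 in the 2 settings with Cre-labelled library 1 only, and Acadl and Acadm at -0.011 and -0.048 in the second of them. Apart from the fewer libraries in those settings, the cause was not tested. Deviations of same-numbered libraries from their group means correlated at -0.044, 0.012 and -0.022. So few libraries cannot show whether those of the same number were handled as pairs. With the replicate number as a block, 3 genes and 0 members were called, with a median of 0.20. With 3 libraries a group, no single-gene permutation test could go below 0.1.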
